A study of Mus musculus with 12 samples.

Results

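B cell genes were read on arrays of sorted mouse T cells, where their mRNA serves as a measure of B cells left in the sorts. The set holds 9 listed genes of 22180 named genes on the array, chosen by symbol: Cd79a, Cd79b, Ms4a1, Cd22, Pax5, Cd74, H2-Aa, H2-Ab1 and H2-Eb1. A gene was measured where a probe set carried its symbol alone, which held for 8 of the 9, each with 1 probe set. The probe set of Cd74 is annotated with a second gene, so Cd74, the invariant chain of MHC class II, is given no value. The 12 arrays form 4 groups of 3: CD8 T cells from linoleic acid culture, CD8 T cells from control culture, CD4 T cells from linoleic acid culture and CD4 T cells from control culture. Mouse splenocytes had spent 24 h with 50 µM linoleic acid, a dietary polyunsaturated fatty acid, or without it, and the T cells were sorted after the culture. The labels give neither strain, age, sex nor sort gates, and they number the arrays of each group 1 to 3 without saying what a number marks. Whether the 3 arrays of a group came from different animals or cultures is not stated, and each p-value is therefore set against array-to-array spread that may be technical.

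B cells recognise antigen through a surface immunoglobulin that signals through the paired chains CD79A and CD79B. They take up the bound antigen and present its peptides on MHC class II molecules to CD4 T cells, and Pax5 is the transcription factor that holds them to the B cell fate. Resting mouse T cells are not known to use these genes in quantity, whereas spleen is rich in B cells. Dendritic cells and macrophages also carry MHC class II. In bulk RNA, fewer cells of a type and less RNA per cell cannot be told apart.

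The sorted identity of the arrays was plain. Cd8a averaged log2 11.06 and 11.23 on CD8 arrays of linoleic acid and control culture, against 6.2 and 6.0 on CD4 arrays. Cd4 averaged 5.76 and 6.04 on CD8 arrays of these cultures, against 10.95 and 10.92 on CD4 arrays. Cd3e, a chain of the T cell receptor complex, lay between 11.0 and 11.86 on the 12 arrays. As a gauge of background, 1409 chemosensory receptor genes had a 95th percentile of log2 5.11, and no value of the 8 B cell genes lay below it (lowest 5.30, Pax5). The 4 arrays numbered 1 stood apart from the other 8 in the B cell genes, and results are therefore given with and without them.

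The 2 MHC class II genes with a promoter at hand are shown. Moving together across the arrays was not particular to them. Their correlation with the mean of the other members was 0.993 (H2-Aa) and 0.973 (H2-Eb1), against 0.991 for Cd79a and 0.978 for Cd22. H2-Ab1, H2-Aa and H2-Eb1 neighbour each other on chromosome 17, between H2-Ob and H2-Eb2. MHC class II promoters carry a Y box, a site around a reversed CCAAT. The letters CTGATTGG, searched on both strands of the 250 bases before the start of each gene, were found in both promoters and are in capitals. They begin 51 bases before the start of H2-Aa (GRCm38, chr17:34287824-34288073, minus strand) and 62 bases before that of H2-Eb1 (GRCm38, chr17:34305617-34305866, plus strand). Sequences are from RefSeq, 5′ to 3′ on the gene's strand.
H2-Aa: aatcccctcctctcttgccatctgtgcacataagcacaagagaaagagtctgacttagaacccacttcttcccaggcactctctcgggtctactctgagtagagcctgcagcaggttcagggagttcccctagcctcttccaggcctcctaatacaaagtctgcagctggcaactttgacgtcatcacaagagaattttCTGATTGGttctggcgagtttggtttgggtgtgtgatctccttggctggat
H2-Eb1: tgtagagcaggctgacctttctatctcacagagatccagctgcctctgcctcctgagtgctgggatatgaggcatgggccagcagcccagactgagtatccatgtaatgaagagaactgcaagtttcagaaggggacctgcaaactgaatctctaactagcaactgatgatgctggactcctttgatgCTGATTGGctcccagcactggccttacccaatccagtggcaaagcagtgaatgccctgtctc
These 8 letters stand in 3.83% of 32851 promoter windows of this length. They are absent from the windows of Cd79a, Cd22 and Pax5, the other genes of the set matched in the promoter table. The octamer ATGCAAAT, searched likewise and present in 1.6% of windows, is in none of the 5. A match describes letters and is not a measured site.

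Array number separated the B cell genes more than cell type or culture did. All 8 measured genes were higher on arrays numbered 2 and 3 than on arrays numbered 1, by 1.73-fold to 3.86-fold, and their 4 arrays numbered 1 all lay below the 8 others. A limma F test of the number beside the 4 groups passed for 8 of 8 genes (adjusted p of 1.48e-08 to 6.71e-05), where 14% of the 14323 genes tested passed. Arrays numbered 1 lay below all others for 2.02% of genes tested. That B cell markers follow the array number was known from earlier results of these data. Between numbers 3 and 2 no B cell gene passed in limma, where 0% of genes tested passed, and 1, Cd79b, had an unadjusted p under 0.05 (0.33 higher on number 3, adjusted p = 0.183), as 14.8% of genes tested did.

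**Figure D1:**
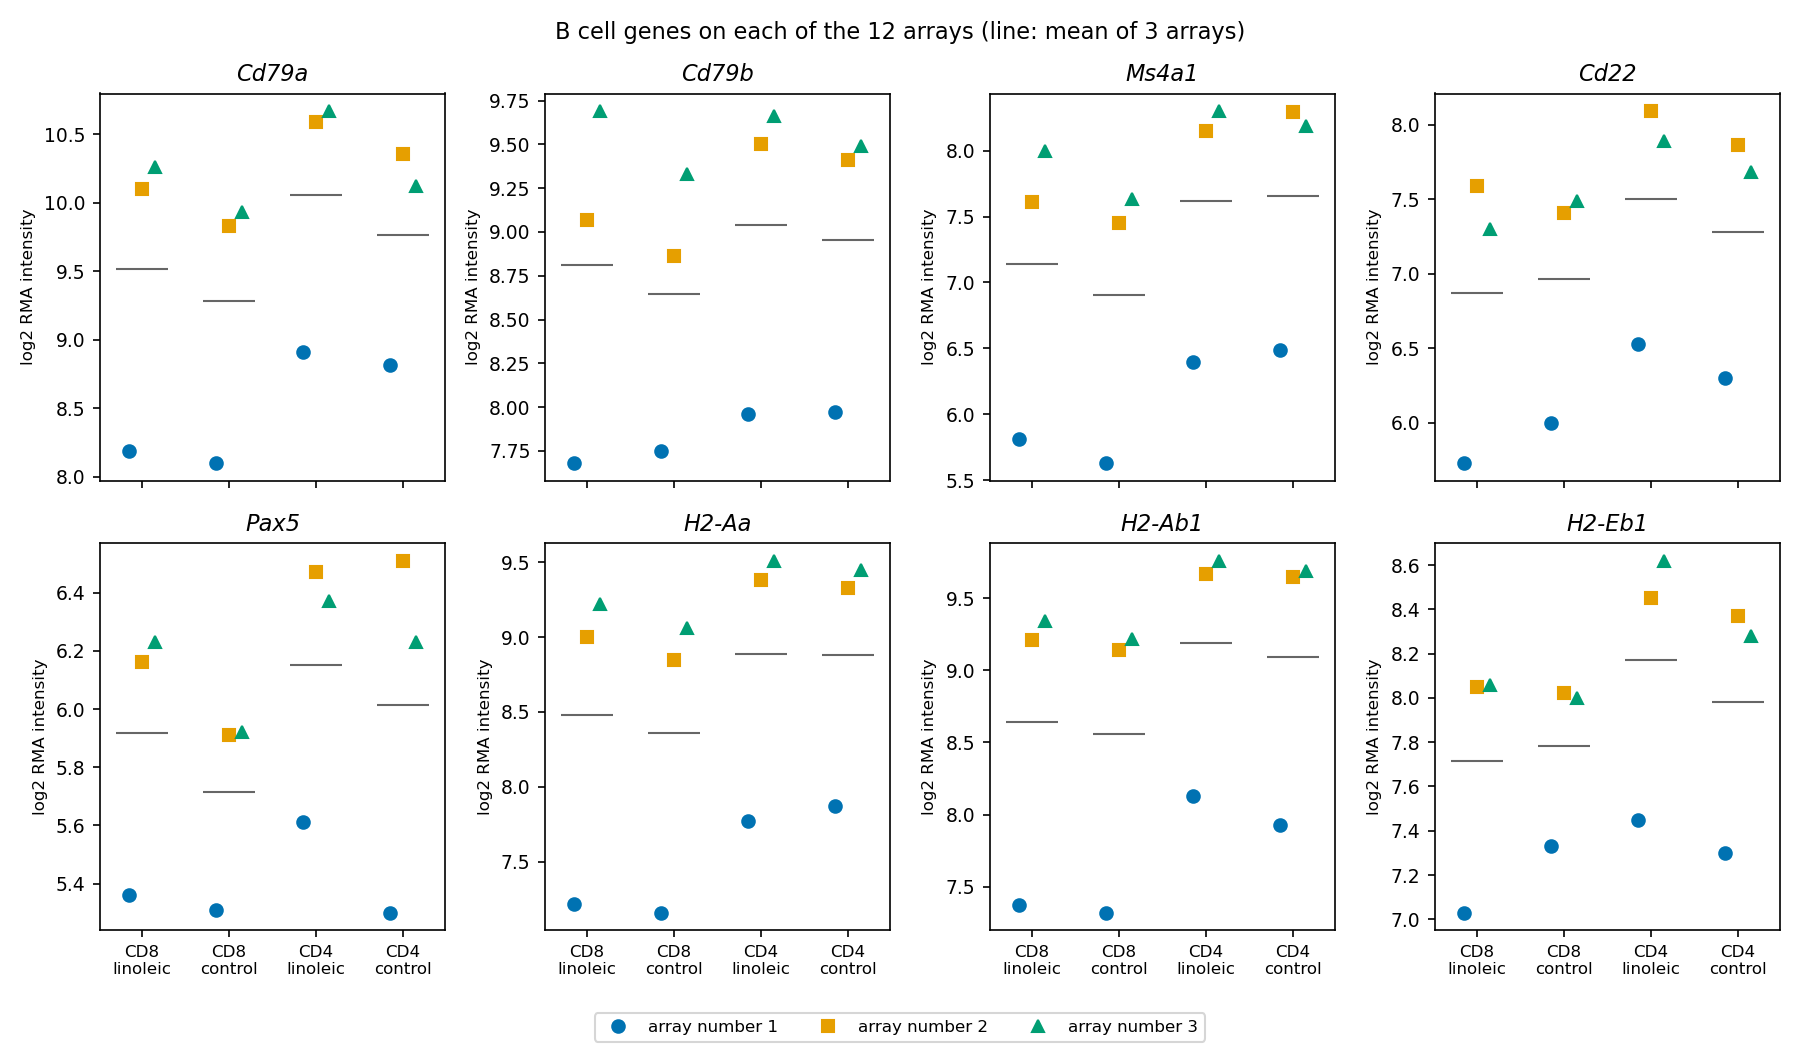
Log2 RMA intensity of each B cell gene (vertical axis, own scale per panel) on the 12 arrays, by group (horizontal axis), with symbols for array number and lines for group means. In every panel the 4 arrays numbered 1 lie below the other 8, for Cd79a with numbers 2 and 3 at 9.83 to 10.67 and number 1 at 8.10 to 8.91.

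Cd79a, the alpha chain of the receptor's signalling pair, read log2 8.19, 10.10 and 10.26 on CD8 linoleic acid arrays 1, 2 and 3 and 8.10, 9.83 and 9.93 on CD8 control arrays. On CD4 arrays it read 8.91, 10.59 and 10.67 with linoleic acid and 8.82, 10.36 and 10.12 in control culture. The first array is the low one in all 4 groups, and groups overlap in each comparison of culture or cell type. Number 2 exceeded number 1 by 1.72 ± 0.11 (SE) and number 3 exceeded it by 1.74, which are 3.28-fold and 3.34-fold. Cd79b, its partner chain, ran from 8.86 to 9.69 on arrays numbered 2 and 3, against 7.68 to 7.97 on arrays numbered 1 (2.58-fold and 3.25-fold for numbers 2 and 3).

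Of the B cell surface proteins, Ms4a1 encodes CD20, the target of rituximab in human medicine, and Cd22 encodes an inhibitory lectin that dampens receptor signalling. Ms4a1 read 5.81, 7.61 and 8.0 on CD8 linoleic acid arrays 1, 2 and 3 and 5.63, 7.45 and 7.63 on CD8 control arrays. It read 6.40, 8.15 and 8.30 on CD4 linoleic acid arrays and 6.49, 8.29 and 8.19 on CD4 control arrays. Its differences between numbers were the largest of the 8 genes, 1.79 ± 0.10 for number 2 and 1.95 for number 3 over number 1 (limma adjusted p = 1.48e-08). Cd22 ran from 7.30 to 8.09 on arrays numbered 2 and 3, against 5.73 to 6.53 on arrays numbered 1 (3.04-fold and 2.74-fold).

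Pax5 had the smallest differences between numbers of the 8, with 0.87 ± 0.10 for number 2 and 0.79 for number 3 over number 1 (limma adjusted p = 6.71e-05). It read 5.36, 6.16 and 6.23 on CD8 linoleic acid arrays 1, 2 and 3 and 5.31, 5.91 and 5.92 on CD8 control arrays. On CD4 arrays it read 5.61, 6.47 and 6.37 with linoleic acid and 5.30, 6.51 and 6.23 in control culture. Its values on arrays numbered 1 are the nearest of the set to the background gauge of 5.11.

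The MHC class II genes encode the chains that hold peptides, H2-Aa and H2-Ab1 the alpha and beta chains of I-A and H2-Eb1 the beta chain of I-E. H2-Ab1 read 7.37, 9.21 and 9.34 on CD8 linoleic acid arrays 1, 2 and 3 and 7.32, 9.14 and 9.22 on CD8 control arrays. It read 8.13, 9.67 and 9.76 on CD4 linoleic acid arrays and 7.93, 9.65 and 9.69 on CD4 control arrays. H2-Ab1 was 3.33-fold higher on number 2 and 3.52-fold higher on number 3 than on number 1, and its neighbour H2-Aa 3.11-fold and 3.5-fold. H2-Eb1 ran from 8.0 to 8.62 on arrays numbered 2 and 3, against 7.03 to 7.45 on arrays numbered 1, a smaller difference of 1.92-fold and 1.95-fold. Differences between genes in the size of these folds were not tested.

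**Figure D2:**
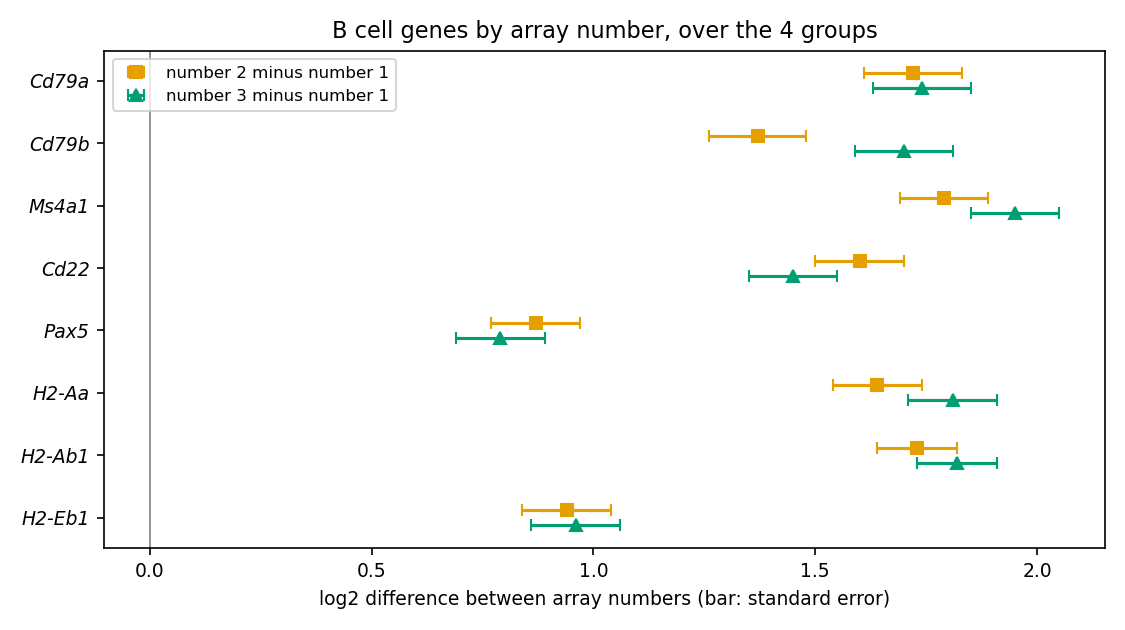
Log2 difference of array numbers 2 and 3 over number 1 for each B cell gene, estimated over the 4 groups, with standard errors as bars. Differences run from 0.79 to 1.95, with Pax5 and H2-Eb1 nearest to 0.

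The 8 genes kept the same order of arrays to a large degree. Each correlated with the mean of the other 7 at r = 0.960 (Pax5) to 0.996 (H2-Ab1) over the 12 arrays, a description only, since arrays of a number rise and fall together. Array number took 82.2% of the variance of Pax5 and 94.0% of that of Cd79b, the ends of the range, and a median of 24.8% over all genes tested. Cell type took 3.1% (Cd79b) to 11.4% (H2-Eb1), and culture 0.2% to 3.7% (Pax5). The remainder was 0.4% to 4.7%, against a median of 37.0% over all genes tested.

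**Figure D3:**
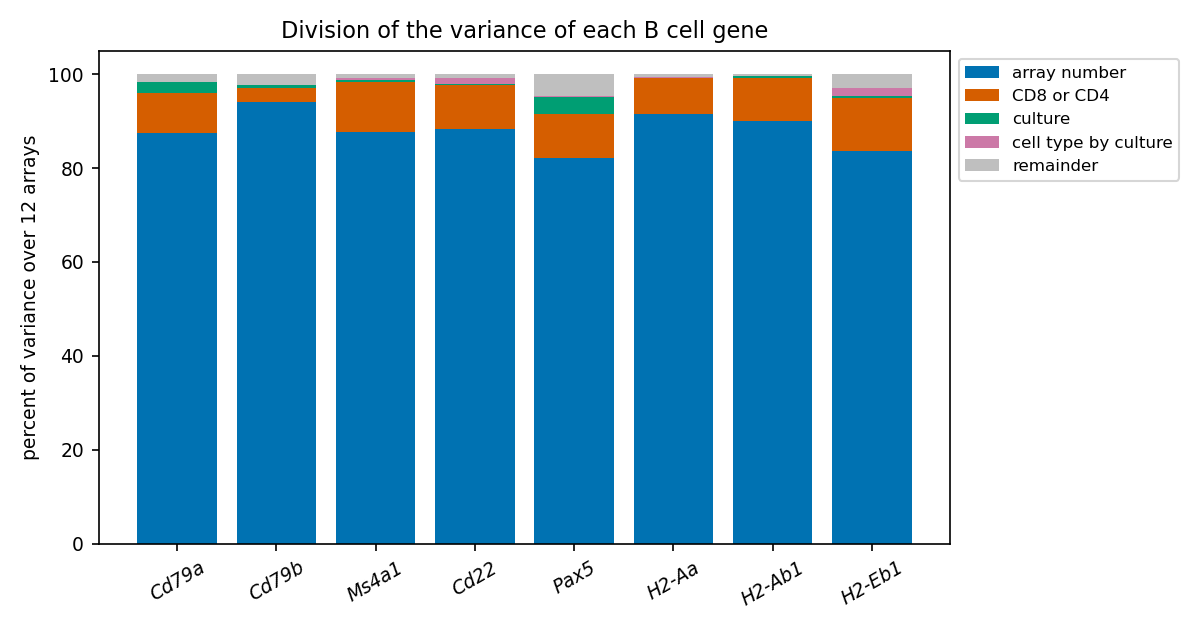
Percent of each B cell gene's variance over the 12 arrays (vertical axis) taken by array number, cell type, culture, their combination and the remainder, as stacked bars per gene. Array number takes 82.2% to 94.0%.

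Other genes of B cells followed the same array numbers. Of 27 tested genes in a list of other B lineage genes, 24 differed between numbers in limma, where 14% of genes tested did. All 24 were higher on numbers 2 and 3, and the median difference over the 27 was 0.98 against -0.07 over all genes tested. Mef2c, a transcription factor of B cell activation, was higher by 1.64 as a mean of numbers 2 and 3 over number 1 (limma F test of the number, adjusted p = 1.97e-08). Bank1, a scaffold of B cell receptor signalling, was higher by 1.55 in the same measure (limma F test adjusted p = 2.1e-08). Cd180, a Toll-like receptor homologue, was higher by 1.68, and Fcmr, the receptor for IgM, by 1.47. The 3 that did not pass, Cd37 at 0.06, Ralgps2 at 0.04 and Pou2f2 at -0.10, are named after their values were seen.

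The rest of the MHC class II pathway moved in part. Of 11 tested genes 5 differed between numbers in the limma F test, where 14% of genes tested did. All 5 were higher on numbers 2 and 3. Differences here are means of numbers 2 and 3 over number 1, and each adjusted p is of the F test. They include Ifi30, a thiol reductase of antigen processing (1.08, adjusted p = 5.64e-06), H2-DMb2, a chain of the peptide exchanger DM (1.32, adjusted p = 2.02e-05), Ciita, the master activator of the class II genes (0.70, adjusted p = 0.00083), and H2-Oa, a chain of the DM inhibitor DO (0.70, adjusted p = 0.00265). H2-Ob, which adjoins H2-Ab1 and encodes the partner of H2-Oa, stood at -0.03 (adjusted p = 0.93, named after its value was seen).

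Markers of other cells were set beside these. Of all 14323 genes tested 2011 differed between numbers in the limma F test, with 632 higher and 1310 lower on both numbers 2 and 3. Of 14 tested myeloid markers 10 differed between numbers, all 10 higher on numbers 2 and 3. The mean of the 16 measured ran from 5.41 to 5.79 on these arrays, against 4.93 to 5.07 on arrays numbered 1. Lyz2, lysozyme of myeloid cells, lay between 5.31 and 7.04 on the 12 arrays, and 7 of the 16 myeloid markers averaged below the background gauge. Of 5 NK cell markers 4 were higher, among them Ncr1, whose 12 values ran from 4.30 to 6.08. Of 8 dendritic cell markers 1 was higher, and their defining integrin Itgax stayed at 3.99 to 4.93, below the gauge. Of the 9 measured 7 averaged below the gauge, while Cd209a averaged 9.11 and Ccr7 10.45. Of 6 tested plasma cell markers 2 were higher. Of the 8 measured 4 averaged below the gauge. Among these was Jchain, which joins secreted antibody and was too low to be tested (3.98 to 4.39), while Xbp1 averaged 7.52. Of 11 T cell genes 4 were lower on numbers 2 and 3 and 0 were higher. The chemosensory receptors averaged 3.15 to 3.46 on arrays numbered 2 and 3, against 2.99 to 3.15 on arrays numbered 1. The part of these differences in the B cell values was not tested.

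The genes most like the B cell genes were sought among 14315 other genes by correlation with the mean of the 8 over the 12 arrays, which share array numbers. The 10 highest were Bank1 (r = 0.996), Cybb, Mef2c, a variable segment of the immunoglobulin kappa light chain, Ctsh, Lrrk2, Fcrla, Igkj1, Unc93b1 and Ly6d (0.987). Igkj1 is a joining segment of the same light chain, and Fcrla is a B cell protein related to Fc receptors. Cybb encodes the catalytic subunit of the phagocyte oxidase, Ctsh a lysosomal protease, and Unc93b1 a chaperone of endosomal Toll-like receptors. The 100 highest held 18 of the 27 other B lineage genes and 3 of the 11 class II pathway genes. The median correlation was 0.947 for B lineage genes, 0.356 for class II pathway genes and -0.187 over all 14315.

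The comparison of CD8 with CD4 T cells asks whether the 2 sorts held the B cell mRNA equally. In linoleic acid culture all 8 genes were lower on CD8 arrays in mean, with a median of -0.47 against -0.02 over all genes tested. Without a block, limma passed 0 of 8 genes (adjusted p of 0.682 to 0.921, none with an unadjusted p under 0.05), where 2.03% of genes tested passed and 1.31% as lower. Groups overlapped for all 8, where 15.3% of genes tested did not overlap. With array number as a block, 6 of 8 genes were lower on CD8 arrays in limma, where 5.57% of genes tested passed and 3.79% as lower. Of 24 differences between same-numbered arrays 23 lay below 0, from -0.79 to 0.04, and 7 genes lay below 0 in all 3 pairs, as 24.9% of genes tested did. The 8 genes move together over the arrays, so the 24 differences are not independent and rest on 3 pairs of arrays.

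Among the genes that passed with the block in linoleic acid culture, Cd22 stood 1.55-fold lower on CD8 arrays (log2 -0.63 ± 0.11 SE, limma adjusted p = 0.00309), with same-numbered differences of -0.79, -0.50 and -0.60. H2-Ab1 stood 1.46-fold lower (-0.55 ± 0.11, limma adjusted p = 0.0061), and Cd79a also 1.46-fold (-0.54 ± 0.13, limma adjusted p = 0.0205). The others were H2-Eb1 at -0.46, Ms4a1 at -0.48 and H2-Aa at -0.41. Cd79b (-0.23, 95% interval -0.50 to 0.05) and Pax5 (-0.23, -0.49 to 0.02) did not pass. Without the arrays numbered 1, the median was -0.43 and 0 of 8 passed with the block, where 3.17% of genes tested passed, or without it, where 1.56% did. With the block 6 of the 8 then had an unadjusted p under 0.05, as 18% of genes tested had.

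These calls also depended on single arrays. In the fit with the block, the step of leaving out 1 array at a time was added after the data were seen. Leaving out CD4 linoleic acid array 1 left 1 call, Cd22, and leaving out array 2 or 3 of that group left 2, Cd22 and H2-Ab1. Leaving out CD8 linoleic acid array 1 or 2 also left Cd22 and H2-Ab1, and leaving out array 3 left 4 calls. Without 1 control array at a time 5 or 6 passed. Cd22 passed in all 12 of these fits, and all 8 genes lay below 0 in each of them.

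**Figure D4:**
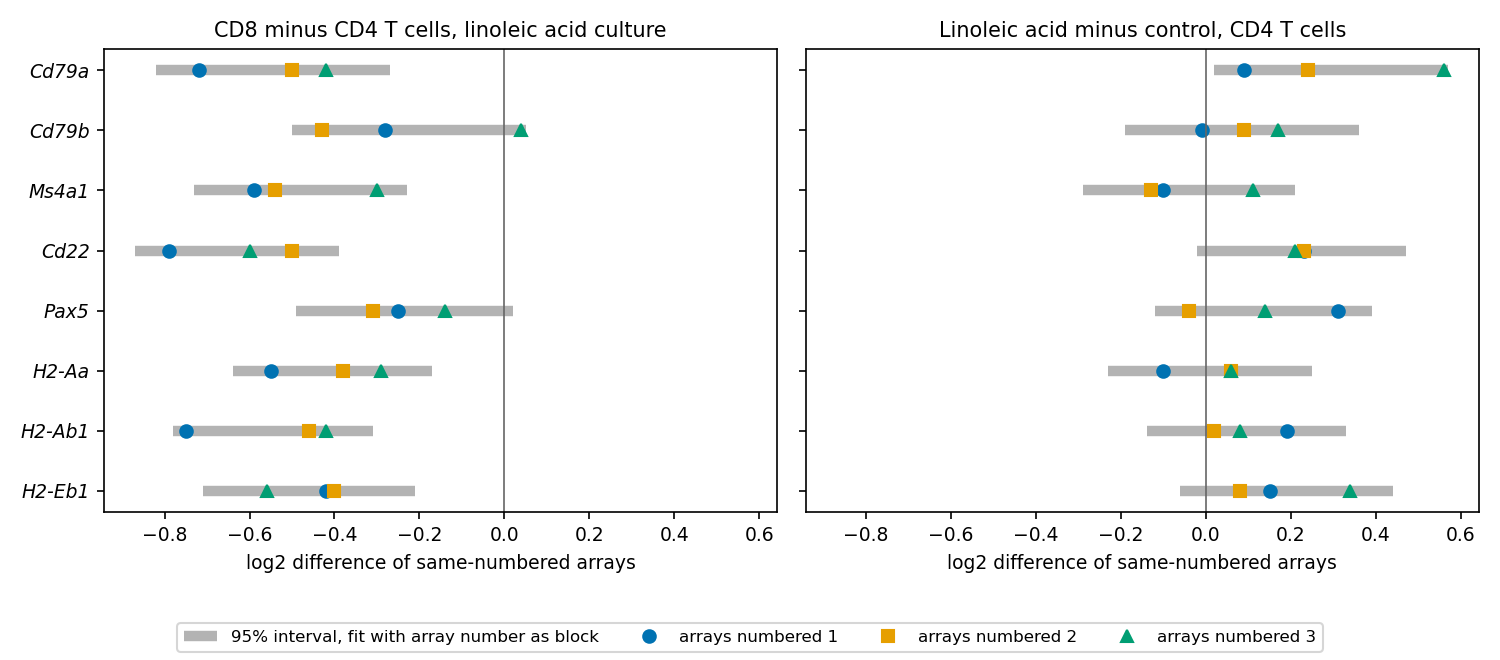
Log2 differences between same-numbered arrays for each B cell gene (symbols), with the 95% interval of the limma fit that takes array number as a block (grey). Left, CD8 minus CD4 T cells in linoleic acid culture, where 23 of 24 symbols lie below 0. Right, linoleic acid minus control in CD4 T cells, where 19 of 24 lie above 0 and no gene passed. The genes move together, so the 24 symbols of a panel rest on 3 pairs of arrays.

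Other B lineage genes ran the same way in linoleic acid culture. Of 27 tested, 24 lay below 0 in CD8 against CD4 arrays (median -0.46), as 7750 of 14323 genes tested did. Without a block 1 of the 27 passed, where 2.03% of genes tested passed. With it 10 passed as lower, where 3.79% of genes tested did. Spib, a transcription factor of B cells, stood at -0.84 (limma adjusted p = 0.00371 with the block), Fcmr at -0.75, Cd83 at -0.68 and Ebf1, an early B lineage factor, at -0.60. The gene that passed without a block was Ralgps2 (-0.62, adjusted p = 0.0274), named after its values were seen. Of the 27, 7 passed as lower with the block when the arrays numbered 1 were left out, where 2.16% of genes tested did. In the class II pathway list Ifi30 was lower (-0.73, limma adjusted p = 0.00191 with the block) and H2-Oa higher (0.75, adjusted p = 0.00792) in CD8 T cells. Without the arrays numbered 1 Ifi30 stood at -0.64 (limma adjusted p = 0.0322 with the block) and H2-Oa at 0.46, which did not pass (adjusted p = 0.138). Beside these, with the block, the myeloid list had a median of -0.03 with 1 of 14 lower, and the plasma cell list -0.35 with 2 of 6 lower, and without the arrays numbered 1 neither list had a call. The T cell list had a median of -0.22 with 3 of 11 lower and 1 higher, and 2 lower and 1 higher without those arrays. The part of these in the B cell values was not tested.

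In control culture all 8 genes also averaged lower on CD8 arrays, with a median of -0.40 against 0.00 over all genes tested. The lowest value was that of Ms4a1, at -0.76 ± 0.69 (SE), with means of 6.90 ± 1.11 on CD8 arrays and 7.66 ± 1.01 on CD4 arrays (SD, n = 3 each). H2-Eb1 was nearest to 0 at -0.20. In limma 0 of 8 passed (adjusted p of 0.873 to 0.956, none with an unadjusted p under 0.05), where 1.95% of genes tested passed and 0.929% passed as lower. The 95% intervals of the 8 genes reached from -2.23 to 0.94. Unless stated, limma results of this paragraph are from the fit without a block, which keeps differences between array numbers in its spread. Array number took 82.2% to 94.0% of the variance of these genes. A fit with the number as a block passed 4 of the 8 as lower, where 2.09% of genes tested passed as lower. Its differences are given at the end, since the number was not taken to pair these arrays. Groups overlapped for all 8, where 16.1% of genes tested did not. Of the 27 other B lineage genes 23 lay below 0 and 0 passed in limma, while 3 had an unadjusted p under 0.05, as 9.37% of genes tested had. Without the arrays numbered 1 the median of the 8 was again -0.40 and 0 passed in limma, where 1.61% of genes tested passed, with 6 at an unadjusted p under 0.05, as 10.1% of genes tested were. Beside these, the plasma cell list lay below 0 for 6 of 6 genes (median -0.35), with 1 lower in limma and 0 without the arrays numbered 1. The myeloid list lay below 0 for 11 of 14 genes (median -0.12) and the T cell list for 6 of 11 (median -0.04), with 0 lower in either. The class II pathway list lay below 0 for 8 of 11 genes (median -0.12). Of these 11 genes 0 passed in limma, and 1 passed as higher without the arrays numbered 1. The part of these in the B cell values was not tested. The 2 comparisons of CD8 with CD4 share no array.

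Linoleic acid was compared with control culture in each sort. In CD4 T cells 7 of 8 genes averaged above control, from -0.04 (Ms4a1) to 0.29 (Cd79a), with a median of 0.12. In CD8 T cells 6 of 8 did, from -0.09 (Cd22) to 0.24 (Ms4a1), with a median of 0.14 against -0.06 over all genes tested. The 27 other B lineage genes had medians of 0.13 in CD4 (21 above 0) and 0.02 in CD8 T cells (17 above 0). Of the 14323 genes tested 6959 lay above 0 in CD4 (median -0.00) and 5284 in CD8 T cells. In limma 0 of 8 passed in either sort, none with an unadjusted p under 0.05, where 0% of genes tested passed. With the array number as a block 0 of 8 passed again in limma, where 0.00698% of genes tested passed in each sort. Cd79a in CD4 T cells then had an unadjusted p of 0.0382, and 5.61% of genes tested had one under 0.05. Groups overlapped for all 8 genes in both sorts, where 7.44% of genes in CD4 and 9.01% in CD8 T cells did not.

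Between same-numbered arrays, for Cd79a, linoleic acid exceeded control by 0.09, 0.24 and 0.56 in CD4 T cells and by 0.09, 0.26 and 0.33 in CD8 T cells. For H2-Ab1 these differences were 0.19, 0.02 and 0.08 in CD4 and 0.06, 0.06 and 0.12 in CD8 T cells. Both genes, picked with their values seen, lay above control in all 6 differences, for which the share of all genes was not counted. Of the 8 genes 4 lay above control in all 3 CD4 pairs, as 13.5% of genes tested did. In all 3 CD8 pairs 5 of the 8 did, as 10.3% of genes tested did. Over the 8 genes 19 of 24 differences lay above 0 in CD4 and 20 of 24 in CD8 T cells, from -0.30 to 0.56. These counts too rest on 3 pairs of arrays in each sort, since the 8 genes move together. The myeloid list lay above control for 12 of 14 genes in CD4 (median 0.14) and 14 of 14 in CD8 T cells (0.16), with 0 past the threshold. The T cell list lay above control for 5 of 11 genes in CD4 (median -0.02) and 0 of 11 in CD8 T cells (-0.16), also with 0 past it. The part of these lists in the B cell values was not tested. The 95% intervals without a block reached from -1.52 to 1.66 in CD4 and from -1.31 to 1.71 in CD8 T cells. With the block they reached from -0.29 to 0.57 in CD4 and from -0.34 to 0.51 in CD8 T cells. Without the arrays numbered 1 the medians were 0.09 and 0.21, and 0 of 8 passed.

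The difference between the linoleic acid responses of the 2 sorts had a median of -0.02 over the 8 genes (CD4 minus CD8), against 0.04 over all genes tested. The values ran from -0.28 (Ms4a1) to 0.32 (Cd22), 4 above and 4 below 0. The median was -0.07 without the arrays numbered 1, with 3 above and 5 below 0. The 27 other B lineage genes had a median of 0.12, with 22 above 0, where 8177 of 14323 genes tested lay above 0. In limma 0 of 8 passed, none with an unadjusted p under 0.05, where 0% of genes tested passed.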

How the data were processed

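Total RNA (300 ng, per the labels' protocols) of 12 sorts was amplified and hybridized to single-colour Affymetrix MoGene-2_0-st arrays. The authors deposited RMA values on a log2 scale of intensity for 41345 probe sets, per the submitters' processing notes. RMA corrects background, normalizes quantiles and summarizes probes. Neither its version nor the summary level or build is stated in those notes. Quantile normalization makes a value relative to the other genes of its array. No further normalization was applied, and the number of arrays limits precision.

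Platform annotation gave 23521 probe sets 1 symbol, 1814 several and 16010 none. The probe set with the highest mean stood for a gene. Genes with a mean below the 40th percentile of probe sets (log2 4.28) were left out, and 14323 were tested, with all 8 measured B cell genes. The 5 comparisons were contrasts in limma 3.58.1 (R 4.3.3, two-sided, without a block, with 5.67 prior beside 8 residual degrees of freedom), adjusted by Benjamini-Hochberg over all genes tested at 0.05. The fit without a block, for CD8 against CD4 in control culture, and the F test were run on simulated data. Its noise was drawn independently for each gene and array, and the fit with the block was not simulated. Variance was divided by sums of squares.

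Same-numbered arrays correlated in their deviations from group means at 0.61, 0.19 and 0.32 for CD4 linoleic acid against control, at 0.43, 0.19 and 0.42 for CD8, and at 0.58, 0.26 and 0.52 for CD8 against CD4 in linoleic acid culture. Each exceeds 0.1, so the number was taken to pair these arrays, from the data and not the labels. For CD4 linoleic acid against control, however, not every array correlated best with the array of its own number. For CD8 against CD4 in control culture (0.54, -0.01 and 0.42) it was not, by this rule over all genes tested. The array numbered 1 was still the lowest for the 8 B cell genes in each control group.

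All 9 genes are named, with up to 4 genes of smallest p past the threshold from each of the B lineage and class II lists, the 10 most alike genes, and 7 marker levels. Erythroid and platelet lists had 1 and 3 tested genes, and 0 differed between array numbers. The CD4 and CD8 lineage lists had 3 tested genes each, with 0 and 1 such differences. Members and lists were chosen with earlier results of these data known. Promoters of 250 bases came from RefSeq (GRCm38), whose table held 5 members.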

Additional observations from a re-analysis of the deposited data

How the results depend on the processing

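In control culture array number was not taken to pair the CD8 and CD4 arrays (correlations of 0.54, -0.01 and 0.42 over all genes tested). Apart from its count of B cell genes, a fit with the replicate block is therefore given here only. That fit passed 4 of 8 genes as lower in CD8 T cells, where 2.09% of genes tested passed as lower. They were Ms4a1 at -0.76 (limma adjusted p = 0.000703), H2-Ab1 at -0.53 (adjusted p = 0.00808), H2-Aa at -0.52 (adjusted p = 0.0109) and Cd79a at -0.48 (adjusted p = 0.0484). The fit passed 630 genes in all, and without the block the 2 counts were 0 and 280. Of the 27 other B lineage genes it passed 7 as lower and 1 as higher, where 4.4% of genes tested passed. Those with the smallest p were Cd83 at -0.54, Fcrl1 at -0.60, Bank1 at -0.47 and Cd180 at -0.56. An unadjusted p under 0.05 was found for 16 of the 27 and for 14.5% of genes tested. Of 11 tested class II pathway genes the fit passed 3 as lower and 1 as higher. H2-Oa was higher at 0.83 (limma adjusted p = 0.00368), and Ifi30 at -0.63, Ctss at -0.53 and H2-DMb2 at -0.67 were lower. Without the arrays numbered 1 the fit with the block passed 1 of the 8, Ms4a1, and 1 of the 27, where 2.3% of genes tested passed. It then passed 1 of the 11 class II pathway genes, as higher. With all arrays, 22 of 24 differences of the 8 genes between same-numbered arrays of control culture lay below 0, from -0.87 to 0.02. These rest on 3 pairs of arrays. In linoleic acid culture the block passed 6 of 8 genes and 798 in all, against 0 and 291 without it, and with 1 array left out 1, 2 or 4 of 8 (a linoleic acid array) and 5 or 6 of 8 (a control array). The block changed no other call of a B cell gene.

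Counts over all genes moved as follows. For CD8 minus CD4 in linoleic acid culture array weights gave 2299, a fit of only the groups compared 138, and the block without the arrays numbered 1 gave 454. Leaving out 1 array gave 150 to 322 there and 176 to 223 in control culture. For linoleic acid in CD4 T cells the block, array weights, and leaving out the arrays numbered 1 with or without the block gave 1 each. In CD8 T cells the block gave 1, array weights 213, and the block without the arrays numbered 1 gave 6.

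Apart from the fits without 1 array, given below, some differences of B cell genes changed sign under these settings. All of those were of linoleic acid against control or of the response, where no gene passed. Centring arrays put H2-Aa at -0.00 for linoleic acid in CD4 T cells. Array weights put Ms4a1 there at 0.13, Cd22 and H2-Eb1 in CD8 T cells at 0.29 and 0.10, and the CD4 minus CD8 response of Cd79b at 0.00 and of H2-Ab1 at -0.05. H2-Eb1 in CD8 T cells, without the arrays numbered 1, stood at 0.05 and the response of H2-Ab1 at -0.05, with or without the block. The cause was not tested.

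In fits without a block, where no B cell gene passed with all arrays, leaving out 1 array also leaves the array numbers unequal between groups, and 0 of 8 genes passed. The median for CD8 minus CD4 in linoleic acid culture ran from -1.02 to 0.10, and the differences that changed sign ran over -1.12 to 0.12 for Cd79a, -0.77 to 0.34 for Cd79b, -1.09 to 0.19 for Ms4a1, -0.50 to 0.05 for Pax5, -0.96 to 0.22 for H2-Aa, -1.08 to 0.09 for H2-Ab1. The median of the 8 genes for CD8 minus CD4 in control culture ran from -0.88 to 0.08, and among the genes that changed sign the differences ran over -0.95 to 0.11 for Cd79a, -0.80 to 0.14 for Cd79b, -0.81 to 0.17 for Cd22, -1.03 to 0.08 for H2-Aa, -1.11 to 0.09 for H2-Ab1, -0.54 to 0.02 for H2-Eb1. The median of the 8 genes for linoleic acid minus control in CD4 T cells ran from -0.34 to 0.60, and among the genes that changed sign the differences ran over -0.18 to 0.87 for Cd79a, -0.41 to 0.62 for Cd79b, -0.62 to 0.57 for Ms4a1, -0.27 to 0.71 for Cd22, -0.22 to 0.41 for Pax5, -0.50 to 0.57 for H2-Aa, -0.48 to 0.63 for H2-Ab1, -0.15 to 0.55 for H2-Eb1. The median of the 8 genes for linoleic acid minus control in CD8 T cells ran from -0.38 to 0.72, and among the genes that changed sign the differences ran over -0.36 to 0.89 for Cd79a, -0.28 to 0.73 for Cd79b, -0.40 to 0.91 for Ms4a1, -0.58 to 0.48 for Cd22, -0.00 to 0.48 for Pax5, -0.47 to 0.76 for H2-Aa, -0.54 to 0.72 for H2-Ab1, -0.30 to 0.27 for H2-Eb1. The median of the 8 genes for the CD4 minus CD8 response ran from -0.61 to 0.50, and among the genes that changed sign the differences ran over -0.60 to 0.66 for Cd79a, -0.65 to 0.46 for Cd79b, -0.95 to 0.36 for Ms4a1, -0.26 to 0.80 for Cd22, -0.42 to 0.21 for Pax5, -0.75 to 0.48 for H2-Aa, -0.62 to 0.64 for H2-Ab1, -0.08 to 0.62 for H2-Eb1.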
